A study of Nothobranchius furzeri with 20 samples.

Results

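In the livers of male turquoise killifish (Nothobranchius furzeri), the age medians of 33 genes were level from 5 to 7 weeks of age. These medians were at least 2-fold higher at 10 weeks, and level again from 10 to 14 weeks. The genes were taken from 26739 identifiers in a table of read counts, of which 22484 had at least 1 read. The members were chosen by their measured counts at the 4 ages. For each gene the median of log2(CPM + 0.5) was taken over the 5 fish of each age, where CPM, the usual per-library unit of RNA-seq counts, is the count scaled to the library's total (1000000 over all genes of a fish). A gene was kept if its highest age median reached 5 CPM, if it was not among the 100 most abundant genes, and if the medians of 5 and 7 weeks, and those of 10 and 14 weeks, lay less than 0.4 apart. Its score was the lower of the 10- and 14-week medians minus the higher of the 5- and 7-week medians, and the score had to be at least 1. A limit of 150 genes was set and not reached. All 20 fish entered this choice, so the differences between ages below describe the members and carry no test.

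The series asks how gene expression in the liver differs between age groups. It holds 20 liver samples from males of the inbred, short-lived GRZ strain, with 5 fish each at 5, 7, 10 and 14 weeks, and the labels give no treatment. RNA was sequenced without strand information, 1 library per sample, with total counts from 22529235 to 42886761. Fish are numbered within each age only to name them. In bulk tissue, fewer cells of a type and less RNA per cell cannot be told apart. The share of reads in the 20 most abundant genes ran from 21.2% to 36.2% over the libraries and the TMM factor, which corrects library size for composition, from 0.848 to 1.23. The 2 highest TMM factors at 5 weeks, 1.23 and 1.14, were those of fish 1 and 2.

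The turquoise killifish completes its life in seasonal ponds, and fish of the GRZ strain grow, mature and age within months. The teleost liver makes plasma proteins, lipoproteins and bile acids, stores glycogen and fat, and responds to feeding, growth hormone and sex steroids. In many teleosts pancreatic tissue lies along the liver. The count table gives identifiers without gene names, and a search of the 38438 genes annotated on assembly NfurGRZ-RIMD1 found 0 of these identifiers. No member can therefore be given a function, a protein or a chromosome here, and the defining markers of hepatocytes or of any other cell type could not be checked.

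Genes that stay level within both pairs of ages seldom step up between them. Of 10284 genes that passed the abundance limits, 4732 were level from 5 to 7 weeks and 7719 from 10 to 14 weeks. Both conditions held for 3763 genes, and the 33 members were 0.877% of these. The mirrored rule, which asks for a step down of the same size, found 9 genes, or 0.239% of the same 3763. Without the 2 conditions of levelness, 152 genes had a score of at least 1, and 89 had a mirrored score of at least 1. Most of the 152 genes thus failed 1 or both of these conditions, and the members were the minority that met both. The conditions compare medians only, and whether the other genes changed within an age pair was not tested.

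**Figure D1:**
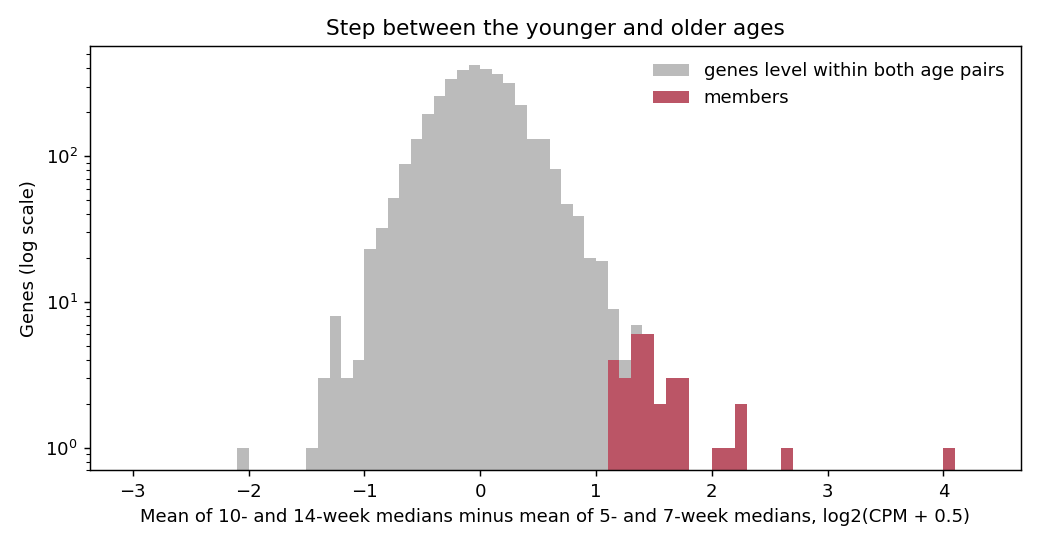
Number of genes (log scale) by the size of the step, which is the mean of the 10- and 14-week medians minus the mean of the 5- and 7-week medians on the log2(CPM + 0.5) scale, for the 3763 genes that were level within both age pairs. The 33 members lie at the right edge of a single distribution centred near 0, 1 of them far from the rest; some nonmembers also lie above 1 because the score uses the lower of the older and the higher of the younger medians.

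The size of the step varied among the members. Scores ran from 1.02 to 3.78 with a median of 1.31. Only 4 members had a score of at least 2, another 5 lay between 1.5 and 2, and 24 lay under 1.5. The difference of the 10-week from the 7-week median had a median of 1.54 over the members, against -0.03 over the 10284 genes past the abundance limits. With TMM-scaled CPM these medians were 1.58 and -0.01. From 10 to 14 weeks the median difference was -0.04 for the members, with 19 members higher at 10 weeks and 14 higher at 14 weeks. From 5 to 7 weeks it was -0.05, with 21 members higher at 5 weeks and 12 higher at 7 weeks.

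Within the abundance limits of the rule, the members spread widely in level, with means from 3.88 to 838 CPM, and in gene length. Their mean over the 20 fish had a median of 16.6 CPM, against 15.9 CPM for all genes past the abundance limits. It was under 10 CPM in 12 members and over 100 CPM in 6. Every member had reads in every fish, and the lowest count was 8. Gene lengths could be read back from the authors' deposited RPKM values, as described under the processing, for all 33 members. They ran from 309 to 8729 bp with a median of 3158 bp, against a median of 3094 bp for 10284 genes. Of the members, 17 were longer than that median, 4 were shorter than the shortest 10% of those genes and 2 were longer than the longest 10%. No 2 members had consecutive identifiers, and the closest pair differed by 21.

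Levels per length can be compared between genes. In RPKM (CPM per kilobase of gene length) recomputed with each library's own total, the median level over the members was 3.64 and 3.04 in the younger ages (5 and 7 weeks) and 9.42 and 8.69 in the older ages (10 and 14 weeks). Nfu_g_1_011088, of 429 bp, stood highest at every age, with age medians of 1016, 1087, 2877 and 2590 RPKM. Nfu_g_1_019563, of 8729 bp and the longest member, stood lowest at every age, with 0.142 RPKM at 5 weeks and 0.972 RPKM at 10 weeks.

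The largest step belonged to Nfu_g_1_006595, of 4175 bp, and it was also one of the least even. It was measured at 93.2, 28.1, 23.6, 9.47 and 8.24 CPM in 5-week fish 1 to 5, and at 20.6, 4.36, 142, 18.05 and 28.6 CPM in the 7-week fish. The values were 129, 330.2, 657, 977 and 120.3 CPM at 10 weeks and 91.8, 114.0, 408, 555 and 866 CPM at 14 weeks. A 7-week fish therefore lay above 2 fish of 10 weeks and 2 of 14 weeks, while the other 4 fish of that age did not reach 30 CPM. Its log2 fold change of 10 against 7 weeks was 3.38 (SE 0.888). Leaving out 1 fish at a time, this fold change ran from 2.86 to 4.55.

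Nfu_g_1_006516, of 3835 bp, had the second highest score, 2.49, with a mean of 11.2 CPM over the 20 fish against 231 CPM for Nfu_g_1_006595. In the 5-week fish it was at 6.61, 5.77, 1.84, 2.86 and 1.5 CPM, and in the 7-week fish at 3.01, 3.69, 3.24, 2.11 and 3.69 CPM. It reached 6.28, 20.6, 34.7, 24.5 and 8.67 CPM at 10 weeks and 6.03, 8.14, 23.32, 35.4 and 21.8 CPM at 14 weeks. The 7-week fish lay close together, and all of them were below every older fish. Only 5-week fish 1, at 6.61 CPM, overlapped the older fish, exceeding fish 1 of 10 weeks and fish 1 of 14 weeks. The log2 fold change of 10 against 7 weeks was 2.56 (SE 0.50).

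Of the members not yet described, Nfu_g_1_019563 and Nfu_g_1_019819 had the largest fold changes between 5 and 14 weeks. For Nfu_g_1_019563 the younger fish were at 1.64, 0.391, 1.19, 2.02 and 1.24 CPM (5 weeks) and 1.30, 0.727, 0.425, 1.39 and 3.69 CPM (7 weeks). The older fish were at 5.67, 9.0, 8.49, 28.2 and 6.08 CPM (10 weeks) and 1.245, 1.244, 7.44, 7.88 and 30.8 CPM (14 weeks). At 14 weeks 3 fish lay above every younger fish, while fish 1 and 2 lay among them. Its log2 fold change of 14 against 5 weeks was 2.92 (SE 0.80), and 1.803 without 14-week fish 5.

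Nfu_g_1_019819, of 858 bp, was more even. It stood at 32.4, 21.6, 52.2, 14.4 and 12.1 CPM at 5 weeks and at 32.7, 27.9, 26.5, 22.2 and 36.6 CPM at 7 weeks. The 10-week fish had 60.02, 165, 124, 239.6 and 119 CPM and the 14-week fish 79.1, 49.6, 94.3, 128 and 264 CPM. Of the older fish only 14-week fish 2 fell below the highest younger fish, which was 5-week fish 3. The log2 fold change of 14 against 5 weeks was 2.21 (SE 0.473).

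The cleanest separation of fish was found in members with a smaller step. Nfu_g_1_005246, of 1312 bp, was at 18.3, 52.8, 75.7, 73.5 and 56.7 CPM at 5 weeks and 61.9, 27.96, 55.6, 45.4 and 54.8 CPM at 7 weeks. It then stood at 169.9, 161, 124, 117 and 152 CPM at 10 weeks and 126, 122, 133, 158 and 124 CPM at 14 weeks. All 10 older fish lay above all 10 younger fish, with a gap of 0.63 on the log2 scale between the nearest fish, and this was the only member without overlap. Among the 10284 genes past the abundance limits, 35 (0.34%) were separated in this way. The log2 fold change of 10 against 7 weeks was 1.61 (SE 0.339).

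Nfu_g_1_011088, the most abundant member, came next in separation. It had 379, 436, 273, 571 and 773 CPM in the 5-week fish and 806, 259.9, 391, 482 and 466 CPM in the 7-week fish. At 10 weeks it had 1234, 1708, 901, 1555 and 805 CPM, and at 14 weeks 1111, 1161, 1336, 1069.9 and 1031 CPM. The groups met at 1 point, where 7-week fish 1 and 10-week fish 5 were nearly equal. The 14-week fish were the closest to each other, with a mean of 1142 CPM and an SD of 119 (n = 5), against 1241 CPM with an SD of 395 at 10 weeks (n = 5).

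**Figure D2:**
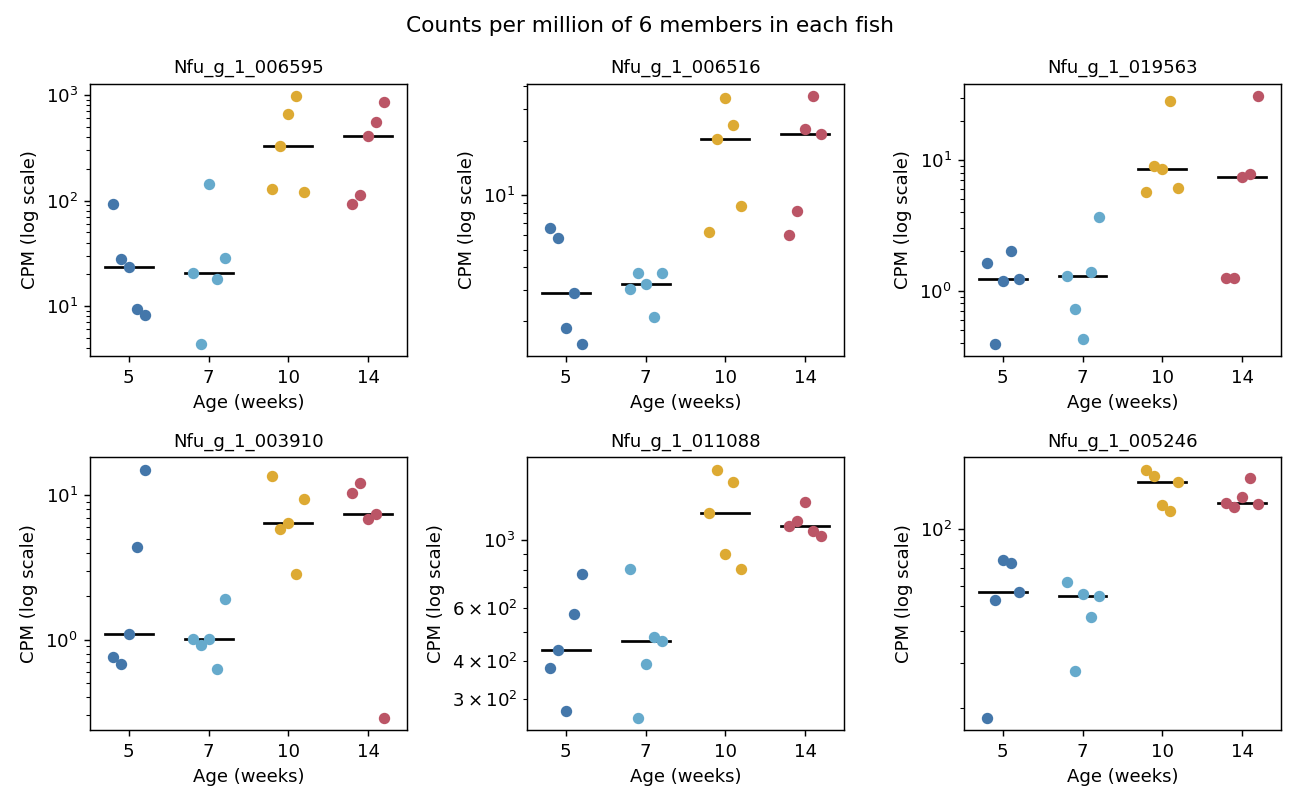
CPM (log scale) of 6 members in each fish, by age; points are single fish, 5 per age, and black lines are age medians. Nfu_g_1_005246 is the only panel in which no older fish reaches down to the younger fish, Nfu_g_1_011088 comes close to it, and the other 4 show single fish lying with the other ages.

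By the rule, each member followed the step in most fish of each age, but the number of members that did so differed between fish. Each member was given a midpoint between the mean of its 5- and 7-week medians and the mean of its 10- and 14-week medians. With a score of at least 1, every age median lies on its own side of this midpoint. Most of the 5 fish of each age must then do so too, and only the differences between fish are described. In the 10-week fish 28, 27, 33, 31 and 30 of the 33 members were above their midpoint, and in the 14-week fish 23, 19, 33, 31 and 27. In the 5-week fish it was 10, 2, 12, 5 and 12 members, and in the 7-week fish 3, 0, 7, 1 and 9. Fish 3 of 10 weeks and fish 3 of 14 weeks had all 33 members above the midpoint and 7-week fish 2 had none (0). By this count the 14-week fish 2, with 19 members, stood nearest to the younger fish among the older ones.

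**Figure D3:**
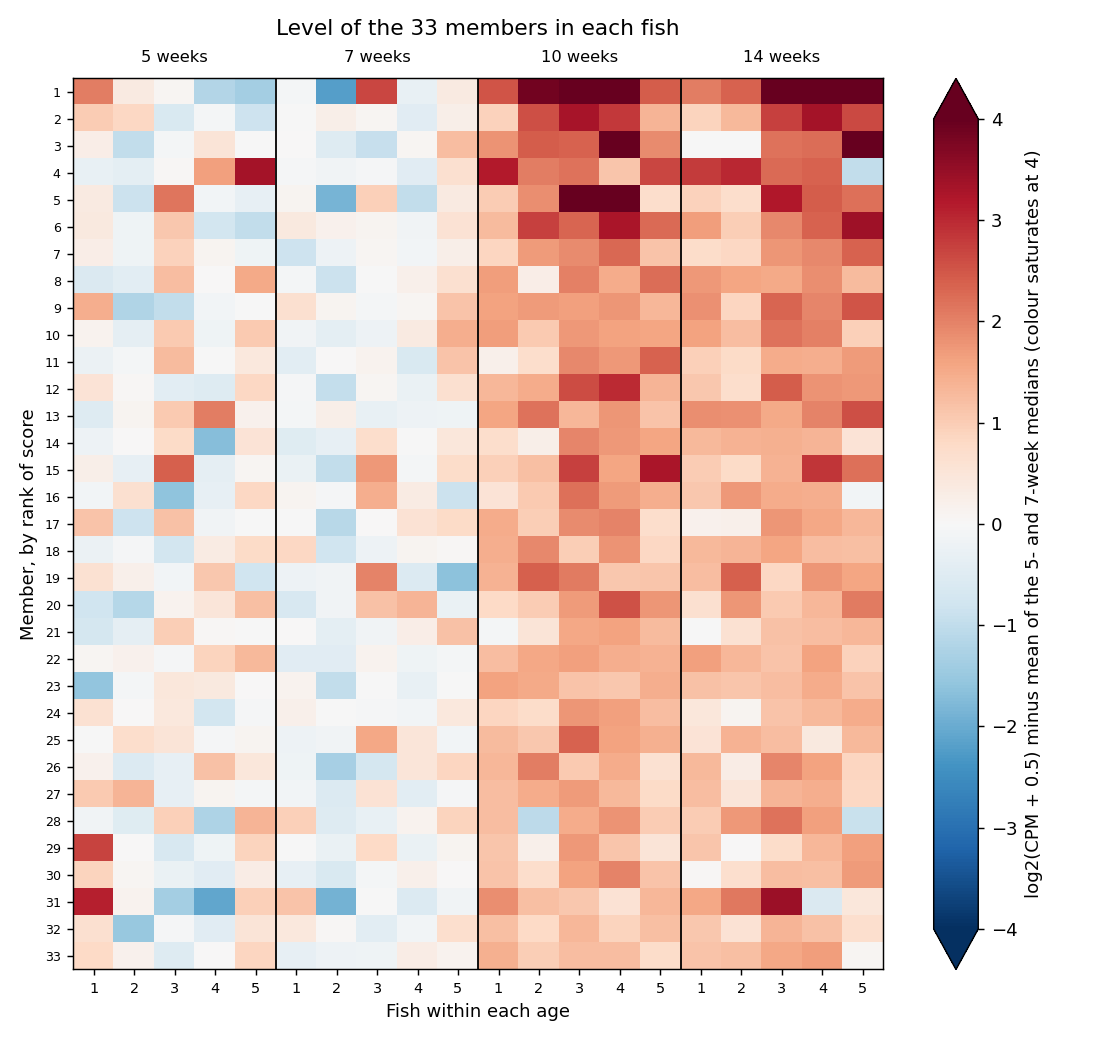
Level of each of the 33 members (rows, by rank of score) in each of the 20 fish (columns, by age), as log2(CPM + 0.5) minus the mean of the member's 5- and 7-week medians. The right side is mostly red, with a few white or blue cells where an older fish lay at or below the young level, and single red cells on the left mark members that were high in 1 young fish.

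**Figure D4:**
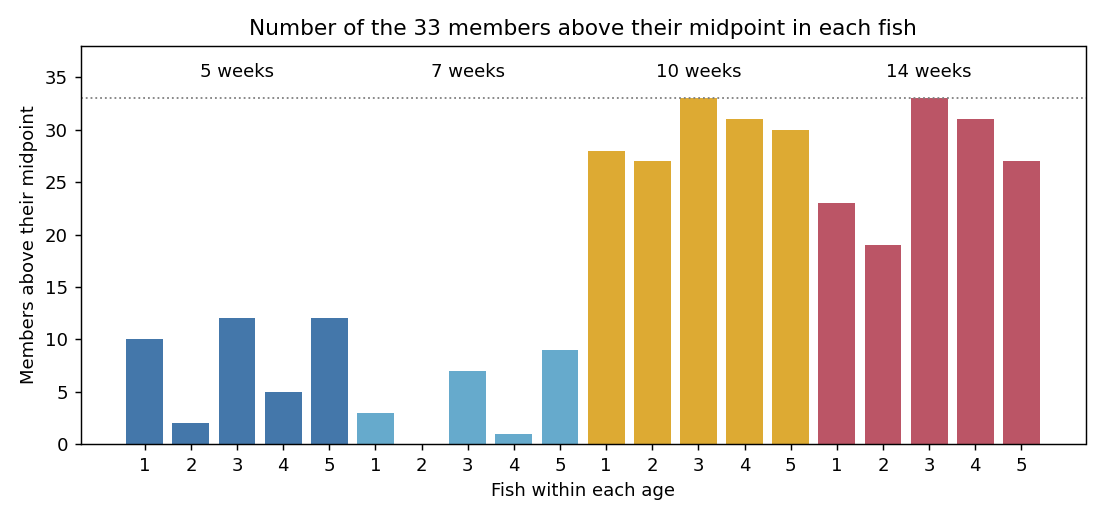
Number of the 33 members above their midpoint in each fish, by age; bars are counts of members and the dotted line marks all 33. The younger fish have between 0 and 12 members above the midpoint and the older fish between 19 and 33.

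The reads taken by the members together are a sum of the values that the rule used. Higher shares at the older ages were thus largely set by the choice, and the most abundant members weigh most in them. The members took from 0.101% to 0.161% of a library's counts in the 5-week fish and from 0.0693% to 0.16% in the 7-week fish. In the 10-week fish the share lay between 0.259% and 0.515%, and in the 14-week fish between 0.24% and 0.392%. The lowest value was that of 7-week fish 2 and the highest that of 10-week fish 4. Fish 3 and 4 of 10 weeks also had the 2 lowest shares of reads in the 20 most abundant genes, 21.3% and 21.2%, against 24.02% to 29.3% in the other 10-week fish. The part of this difference in the members' values was not tested.

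The members varied more between fish of an age than liver genes did in general. The median SD of log2(CPM + 0.5) over the members was 0.826, 0.58, 0.592 and 0.627 at 5, 7, 10 and 14 weeks (5 fish each). Over the 10284 genes it was 0.457, 0.269, 0.346 and 0.372 in the same order. The SD was greatest at 5 weeks in 14 members and at 14 weeks in 9, and the remaining members had it at 7 weeks (6 members) or 10 weeks (4 members). Over the 10284 genes the SD was greatest at 5 weeks in 45.1%, at 7 weeks in 9.08%, at 10 weeks in 17.99% and at 14 weeks in 27.9%, so nothing is read from these counts about the members. The rule used medians only, and the SD was not a condition of it. Medians of 5 fish differ more by sampling in genes that vary more, so the choice itself can favour such genes. The higher SD is therefore not read as a trait of the members.

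Fish of different ages were compared in an edgeR quasi-likelihood fit of all 16475 genes with enough reads, in which all 33 members were kept, and genes were called at a Benjamini-Hochberg adjusted p under 0.05. The rule used these contrasts, so the counts say nothing beyond it. Of the 33 members, 25 were called higher at 10 than at 7 weeks, where 11.9% of all tested genes were. At 14 against 7 weeks 23 members were called higher, where 14.2% of all genes were. Against 5 weeks fewer members passed, with 15 higher at 10 weeks (2.56% of all genes) and 10 higher at 14 weeks (1.31%). No member was called lower at an older age in these 4 comparisons (0 in each). Of all 16475 tested genes, 2593, 2755, 891 and 436 were called lower, in the order just given. All 33 fold changes in each comparison were positive, a direction that the rule favoured. The lowest were 0.79, 0.64, 0.04 and 0.13 on the log2 scale, in the same order. In total, 10 members were called in all 4 comparisons and 8 in none. The share of all genes was not taken for the comparisons together, so nothing is read from these totals.

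The comparisons share groups of fish, and their fold changes are therefore given side by side without relating them. The median log2 fold change of the members was 1.42 for 10 against 7 weeks, 1.34 for 14 against 7, 1.251 for 10 against 5 and 1.04 for 14 against 5. Over all tested genes these medians were 0.03, 0.03, -0.07 and -0.08. The number called against 5 weeks changed with the omission of some single fish. For 10 against 5 weeks it was 4 without 10-week fish 4. For 14 against 5 weeks the omission of 5-week fish 2, 14-week fish 3 or 14-week fish 4 gave 3 each. That of 10-week fish 1 gave 6, although this fish is of neither age and enters only through what the fit shares over all fish. With the 10 libraries of the 2 ages alone it was 8 for 10 against 5 weeks and 0 for 14 against 5 weeks, where DESeq2 on all fish called 17. The share of all genes called was taken in the main fit only. These changes may hold over the whole table, and nothing is read from them about the members.

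**Figure D5:**
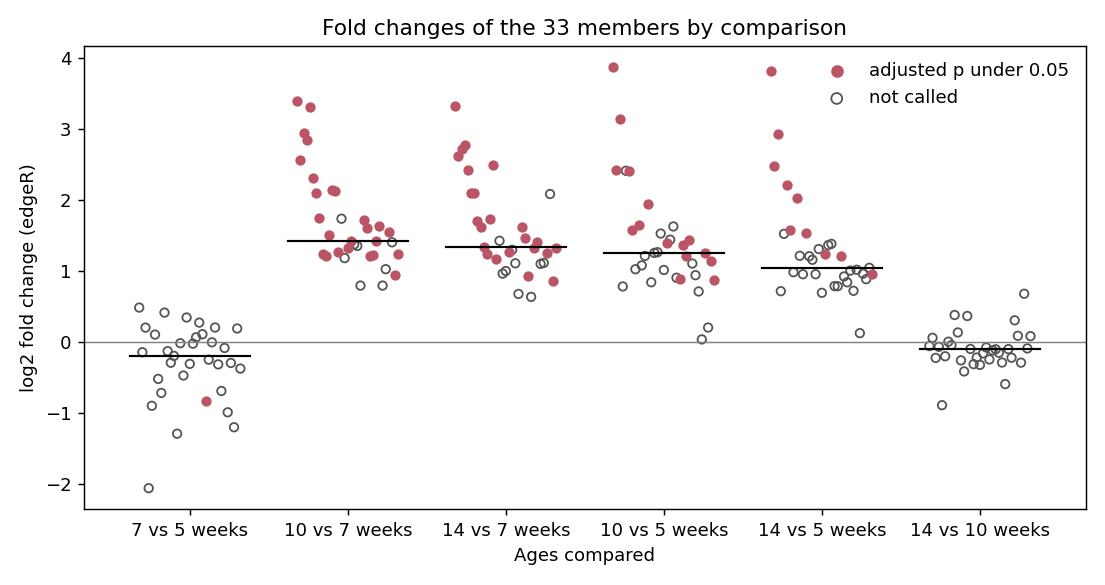
Log2 fold changes of the 33 members from the edgeR fit in 6 comparisons of ages; each point is a member, filled where the adjusted p was under 0.05, and the black line is the median. The 4 comparisons of an older with a younger pair lie wholly above 0, with medians from 1.04 to 1.42, and the 2 comparisons within a pair lie around 0.

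The overlap of single fish was also given member by member. All 10-week fish lay above all 7-week fish in 15 members, where 10.6% of the 10284 genes showed this. It was 9 members for 14 against 7 weeks (9.36% of genes), 10 for 10 against 5 weeks (2.93%) and 2 for 14 against 5 weeks (1.97%). The separation of 14 from 5 weeks was thus the rarest of the 4 among the members, as it was among all genes.

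Within the younger pair the medians were held level by the rule, but means were not. Of the members, 1 was called between 7 and 5 weeks, where 21.1% of all genes were. This was Nfu_g_1_001139, named after its values were seen, with 16.4, 17.4, 14.9, 28.9 and 38.7 CPM at 5 weeks and 10.9, 11.0, 17.1, 13.5 and 14.6 CPM at 7 weeks. It stood at 37.2, 45.5, 48.7, 43.0 and 40.9 CPM at 10 weeks and 49.0, 39.4, 34.3, 48.0 and 29.3 CPM at 14 weeks. Its 10-week fish were the most even of any age, and 1 fish of 5 weeks, fish 5, reached into the older range. The count of members called was 2 without 5-week fish 1 or fish 2 or without 14-week fish 5. Omitting 5-week fish 4 or fish 5, or 7-week fish 1, fish 2 or fish 4, left 0. The share of all genes called was not taken for these omissions.

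The largest negative fold change from 5 to 7 weeks was that of Nfu_g_1_003910, of 1361 bp, and it rested largely on a single fish. This gene had 0.755, 0.685, 1.09, 4.38 and 15.1 CPM at 5 weeks and 1.02, 0.916, 1.01, 0.624 and 1.93 CPM at 7 weeks. It reached 13.6, 5.88, 6.46, 2.87 and 9.38 CPM at 10 weeks and 10.4, 12.1, 6.92, 7.49 and 0.288 CPM at 14 weeks. Fish 5 of 5 weeks was above every older fish, and fish 5 of 14 weeks was below every younger fish. The log2 fold change of 7 against 5 weeks was -2.06 (SE 0.842), and -0.71 without 5-week fish 5. The largest positive fold change from 5 to 7 weeks was that of Nfu_g_1_006595, 0.49 (SE 0.813), which turned to -0.65 without 7-week fish 3.

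Between 10 and 14 weeks edgeR called no member (0), where it called 0.0121% of all tested genes. DESeq2 also called 0 members, and 0 had an unadjusted edgeR p under 0.05. For these further counts the share over all genes was not taken. The fold changes ran from -0.89 to 0.68 with a median of -0.10. Nfu_g_1_003526, of 4104 bp, had the most negative, with 4.81, 9.08, 40.8, 52.4 and 3.73 CPM at 10 weeks and 4.46, 3.80, 23.4, 13.5 and 11.5 CPM at 14 weeks. Before that it was at 2.84, 0.946, 11.0, 1.94 and 1.57 CPM at 5 weeks and 2.32, 0.216, 4.61, 0.831 and 2.87 CPM at 7 weeks. The highest value of each age was thus 11.0 CPM (5 weeks), 4.61 CPM (7 weeks), 52.4 CPM (10 weeks) and 23.4 CPM (14 weeks). For this gene the log2 fold change of 14 against 10 weeks was -0.89 (SE 0.809). It ran from -1.29 without 14-week fish 3 to -0.25 without 10-week fish 4.

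Nfu_g_1_002737, of 1569 bp, had the most positive fold change from 10 to 14 weeks, 0.68 (SE 0.824). It was at 15.5, 9.62, 8.72, 6.07 and 10.6 CPM at 10 weeks and at 12.5, 18.4, 46.2, 2.43 and 5.50 CPM at 14 weeks. At 5 weeks the values were 37.7, 4.37, 1.22, 0.547 and 8.09 CPM, and at 7 weeks 9.16, 0.673, 3.86, 2.53 and 3.46 CPM. The highest of the younger fish, fish 1 of 5 weeks, exceeded 9 of the 10 older fish, and the gene entered the set through its medians alone. The fold change was -0.10 without 14-week fish 3.

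The least abundant member was Nfu_g_1_002249, of 747 bp, with a mean of 3.88 CPM over the 20 fish. It had 0.666, 0.424, 1.75, 2.36 and 4.19 CPM at 5 weeks and 0.814, 1.35, 4.12, 4.78 and 1.18 CPM at 7 weeks. The older fish had 3.03, 3.58, 6.09, 11.5 and 6.39 CPM at 10 weeks and 2.65, 6.41, 3.69, 4.63 and 8.04 CPM at 14 weeks. The younger and older fish overlapped between 2.65 and 4.78 CPM. Its log2 fold change of 10 against 7 weeks was 1.35 (SE 0.576), and it was not among the called members in any of the 4 comparisons.

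The edge of the set was not marked by a gap in the scores. The last gene inside was Nfu_g_1_020123, with a score of 1.02 and age medians of 14.4, 11.1, 30.5 and 29.7 CPM at 5, 7, 10 and 14 weeks. The first gene outside was Nfu_g_1_015284, with a score of 0.998 and age medians of 61.8, 52.1, 138 and 124 CPM. In Nfu_g_1_020123 the single fish were at 22.2, 14.4, 8.64, 12.8 and 23.1 CPM at 5 weeks and 10.1, 10.9, 11.1, 15.5 and 13.9 CPM at 7 weeks. They were at 34.7, 25.32, 30.7, 30.5 and 21.4 CPM at 10 weeks and 28.6, 29.7, 37.9, 41.3 and 13.5 CPM at 14 weeks. Its 10-week and 7-week fish did not overlap, and 14-week fish 5 lay among the younger fish. The 10-week fish 5, at 21.4 CPM, also lay below 5-week fish 1 and fish 5.

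Membership also depended on which fish were measured, because each median rests on 5 fish. When the rule was applied with 1 fish left out, between 16 and 30 of the 33 members were kept, and between 19 and 42 genes passed. Fewest members were kept, 16 in each case, when 5-week fish 2 or 14-week fish 4 was omitted. Omitting 14-week fish 5 kept 17, omitting 14-week fish 3 kept 19, and omitting 5-week fish 1 or fish 4 kept 20. The number of genes passing was 19 when 14-week fish 4 was omitted. Only 4 members were kept whichever fish was left out, and Nfu_g_1_011088 was among them. Another 12 were kept in 15 to 18 of the 20 cases and 17 in fewer than 15. Nfu_g_1_006595, with the largest step, was kept in 11 and Nfu_g_1_005246, with the cleanest separation, in 18.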

How the data were processed

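RNA-seq read counts of 20 livers were used. The authors deposited raw counts per gene as whole numbers. Per the submitters' processing notes, base calling, alignment and counting involved CASAVA 1.8.2 along with STAR 2.4.1d and also featureCounts 1.4.6-p4. For the genome build, the annotation and how reads were assigned, nothing is given in the sources used here. The labels' protocols name the TruSeq RNA v2 kit. Without strand information, reads of overlapping or antisense genes cannot be told apart, and reads of near-identical genes may not be either. The authors also deposited RPKM values. Their divisors ran down the columns through a cycle of 25 totals, of which 20 matched the libraries' count totals and 5 matched none (residual SD 9.59e-05 on the log2 scale, against 0.226 with 1 divisor per column, over 6953 genes). The deposited RPKM depart by up to 2.05-fold from those of their own library. They gave gene lengths and an alternative test with limma 3.58.1 on log2(RPKM + 0.1), for genes reaching 1 RPKM.

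Counts were fitted in R 4.3.3 with edgeR 4.0.16 (filterByExpr, TMM, 1 mean per age, quasi-likelihood F-tests over 16475 genes, Benjamini-Hochberg adjustment). The fit was also run on simulated data, and no result of that run is given or used here. Standard errors are the fold change divided by the root of F. DESeq2 1.42.0, other scaling, no filter, 2 ages alone and omitted fish were alternatives. CPM use column totals. All 40 pairs of same-age libraries differed by more than sampling noise (lowest chi-square per degree of freedom 64.8). The sample titles carry a different number for each sample, and each sample is called a fish here. The labels say nothing further on whether samples are separate animals, and p-values then cover only the spread among samples, which may be technical. The members, lists and tests were chosen with earlier results of these data known. Named genes are the extremes of score, level, separation and fold change among members, at most 2 per direction; planned marker lists could not be applied without gene names.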

Additional observations from a re-analysis of the deposited data

Results flagged for a closer look

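Among the named members and the per-fish summaries, 52 groups of 5 fish were examined for a fish far from the others of its age. In 7 groups such a fish was found. Members were examined on CPM without a log, where a high fish stands apart more readily than a low one. The number found is therefore not set against chance. Nfu_g_1_006595 stood apart in 5-week fish 1, at 93.2 CPM, and in 7-week fish 3, at 142 CPM. Nfu_g_1_019563 did so in 10-week fish 4, at 28.2 CPM, and in 14-week fish 5, at 30.8 CPM. At 5 weeks Nfu_g_1_003910 was far above the other fish in fish 5, at 15.1 CPM. In the same age Nfu_g_1_002737 stood out in fish 1, at 37.7 CPM, and Nfu_g_1_003526 in fish 3, at 10.95 CPM. All 7 values were the highest of their age, and the low value of Nfu_g_1_003910 in 14-week fish 5, 0.288 CPM, was not flagged. Over all 33 members, such a fish was found in 7 members at 5 weeks and 5 at 7 weeks, and in 2 members at each of the older ages. The share over all genes was not taken, so nothing is read from these counts about the members.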

How the results depend on the processing

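The number of genes passing the rule was 21 with a limit of 0.3 on the age differences and 57 with 0.6. Members kept were 14 with age means in place of medians, 21 with the limit of 0.3, and 17 without 5-week fish 1 and 2. Leaving out 1 fish gave 19 to 42 passing genes and 16 to 30 kept members. Members called higher ran from 19 to 27 for 10 against 7 weeks, 18 to 25 for 14 against 7, 4 to 20 for 10 against 5 and 3 to 13 for 14 against 5; members called between 7 and 5 weeks ran from 0 to 2, and between 14 and 10 weeks 0 were called with any fish left out. For 10 against 5 weeks the count was 8 with the 10 libraries alone and 9 without 5-week fish 1 and 2. For 14 against 5 weeks it was 0 with the 10 libraries, 4 without 5-week fish 1 and 2, 17 with DESeq2 and 3 with the deposited RPKM. For 7 against 5 weeks it was 0, 4, 3 and 0 under the same settings. The share of all genes called was taken in the main fit only, so nothing is read from changed numbers of called members. For the counts of this paragraph the remaining alternatives stayed within 1.5 times, but the genes passing the rule were not always the same. With TMM-scaled CPM 44 genes passed, of which 28 were members and 16 were other genes. With age means 39 passed, of which 14 were members and 25 were other genes. The fold change of Nfu_g_1_006595 from 5 to 7 weeks was -0.65 without 7-week fish 3 and ran up to 1.19 with 1 fish left out, and that of Nfu_g_1_002737 from 10 to 14 weeks -0.10 without 14-week fish 3 and ran up to 0.95. The causes were not tested. Fold changes of named members were varied only in the comparison that named them. No paired analysis was possible because fish are numbered in accession order and the numbers pair no animals across ages. The 5 fish per age limit the precision, and so does counting error in the least abundant members, whose lowest count in a fish was 8.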

Other observations

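Some members stood high or low in the same older fish. In 14 members, 14-week fish 1 and 2 were the 2 lowest of their age, where 13.3% of the 10284 genes past the abundance limits showed this. In 14 members, 10-week fish 3 and 4 were the 2 highest of their age, where 34.4% of genes did. Both held in 9 members, against 7.28% of genes, and Nfu_g_1_006595, Nfu_g_1_006516 and Nfu_g_1_003526 were among them. The count for 10-week fish 3 and 4 alone is near the share of genes, so nothing is read from it. These ranks use CPM without TMM scaling, and 10-week fish 3 and 4 had the 2 highest TMM factors of that age, 1.188 and 1.025. These sets of fish were chosen after the values were seen, so the counts carry no test.

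Within 10 weeks, fish 3 was more than 0.5 above the age median (log2) in 10 members and more than 0.5 below it in none (0), where 15.4% and 1.88% of the 10284 genes were. Fish 1 of 10 weeks was that far below in 12 members (11.8% of genes) and fish 2 in 10 (24.8% of genes). The count for fish 2 is near the share of genes, and its TMM factor, 0.856, was the lowest of that age, so nothing is read from it. At 14 weeks fish 2 was that far below in 18 members, where 5.29% of genes were, and fish 1 in 14 (7.83% of genes). The TMM factor of 10-week fish 3, 1.188, was the highest of that age. Genes that vary more pass a fixed limit of 0.5 more often. The median SD was 0.592 over the members against 0.346 over the genes at 10 weeks, and 0.627 against 0.372 at 14 weeks. None of these counts is therefore read as a trait of the members.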
